A study of Homo sapiens with 12 samples.

Results

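The nuclear genes for subunits of respiratory complexes I to V numbered 88 of the 23228 gene symbols in the count tables. They were chosen by symbol alone, as the NDUFA, NDUFB, NDUFC, NDUFS and NDUFV genes, SDHA to SDHD, the UQCR genes and CYC1, the COX genes from COX4 on, and the ATP5 genes, with NDUFAF assembly factors and pseudogenes left out. The rule uses no measured value, but it was set with earlier results of these data known. Complex I had 40 members, complex II 4, complex III 10, complex IV 16 and complex V 18. Symbols are spelled as the files spell them, so that the ATP synthase genes carry their older ATP5 names. A few of the chosen symbols are not established subunits: ATP5S and ATP5SL are related by name, UQCRHL is a retrocopy that shares reads with UQCRH, NDUFA4L2 is a relative of NDUFA4, and NDUFC2-KCTD14 is a readthrough transcript. NDUFA4 is counted under complex I by its symbol, although its protein is now assigned to complex IV.

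The respiratory chain sits in the inner mitochondrial membrane. Complex I takes electrons from NADH and complex II takes them from succinate, and both pass them to ubiquinone. Complex III moves them on to cytochrome c, complex IV gives them to oxygen, and complex V, the ATP synthase, uses the proton gradient that complexes I, III and IV build. Apart from complex II, each of these complexes mixes nuclear-encoded subunits with a few encoded in mitochondrial DNA, so the nuclear genes have to be expressed together with the mitochondrial ones. In breast epithelium and its tumours the chain supplies ATP and also lets the cell make aspartate and pyrimidines.

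The cells were MDA-MB-468, an established line from a triple-negative breast cancer that carries amplified EGFR. Poly(A) RNA was sequenced from 4 groups of 3 libraries, lettered A, B and C in each group. The combination group received 5 µM ipatasertib, an inhibitor of the kinase AKT, together with 5 µM tazemetostat, an inhibitor of the histone methyltransferase EZH2. The ipatasertib and tazemetostat groups received that drug alone at the same dose, and the DMSO group received solvent. All cells were moved to low-serum medium when ipatasertib was added and were collected 24 h later. Tazemetostat or DMSO had by then been in the medium for several days, so the exposures to the 2 drugs differ in length. All 12 libraries come from 1 line, and the labels do not say whether the libraries of a group came from separate cultures, so a p-value here reflects only how far the libraries of a group differ, which may be a technical difference.

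The libraries held 12981622 to 17948209 counts in genes with the combination, 18926477 to 25468348 with ipatasertib, 19023947 to 26070000 with tazemetostat and 22682755 to 28746965 with DMSO. In every group the A library stood apart from B and C: the chi-square statistic per degree of freedom over genes was 4.36 to 15.5 between A and B or C, and 2.41 to 3.61 between B and C. None of the pairs matched within sampling noise, so each library was counted. The 8 markers of basal mammary epithelium summed to 3471 to 3816 counts per 1e6 counts in genes (CPM) with the combination, 4489 to 4834 with ipatasertib, 3281 to 3444 with tazemetostat and 3999 to 4224 with DMSO. They did not move together: KRT5, a basal keratin, averaged 443 ± 35.7 CPM with the combination, 1171 ± 67.3 with ipatasertib and 1022 ± 39.9 with tazemetostat, against 1718 ± 74.3 with DMSO (SD, n = 3 each). EGFR averaged 2243 ± 192 CPM with the combination, 2257 ± 323 with ipatasertib and 1248 ± 93.3 with tazemetostat, against 1065 ± 52.8 with DMSO. Their part in the results on the respiratory chain was not tested. The 7 fibroblast markers summed to at most 19.3 CPM in any library and the 6 endothelial markers to at most 31.5 CPM. The 7 leukocyte markers summed to 62.4 to 72.5 CPM with the combination, 78.0 to 100.02 with ipatasertib, 57.1 to 64.6 with tazemetostat and 80.1 to 86.3 with DMSO. The mitochondrially encoded subunits are not analysed here.

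Promoters of some members are shown because this gene family is the textbook example of promoters with sites for NRF1, for the ETS factor GABP and for YY1. The part of such sites in the results was not tested. RefSeq (GRCh38.p14) gave a window of 250 bases before to 50 bases after the start for 70 of the 88 members. Capitals mark the NRF1 motif GCGCATGC, the ETS motif CCGGAAGT and the YY1 motif AAGATGGC, each on either strand; these motifs did not overlap in the windows shown. NDUFA3, SDHB, COX8A, ATP5I and ATP5G1 are among the members whose values are given further on. The window of COX5B is also shown, but its values are not printed in the text.
NDUFA3 (chr19:54102605-54102904, plus strand): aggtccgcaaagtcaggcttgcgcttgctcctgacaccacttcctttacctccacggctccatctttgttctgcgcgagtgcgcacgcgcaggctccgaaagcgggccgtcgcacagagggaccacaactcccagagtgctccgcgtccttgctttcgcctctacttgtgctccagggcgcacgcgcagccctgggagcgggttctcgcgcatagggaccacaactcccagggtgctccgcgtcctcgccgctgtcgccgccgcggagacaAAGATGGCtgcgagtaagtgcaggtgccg
SDHB (chr1:17053983-17054282, minus strand): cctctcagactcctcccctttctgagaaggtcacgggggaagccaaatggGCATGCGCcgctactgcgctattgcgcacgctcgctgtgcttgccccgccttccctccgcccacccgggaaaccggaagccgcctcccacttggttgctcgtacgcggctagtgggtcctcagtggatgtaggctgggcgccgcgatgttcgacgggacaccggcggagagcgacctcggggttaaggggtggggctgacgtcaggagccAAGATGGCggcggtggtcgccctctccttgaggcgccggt
COX5B (chr2:97645812-97646111, plus strand): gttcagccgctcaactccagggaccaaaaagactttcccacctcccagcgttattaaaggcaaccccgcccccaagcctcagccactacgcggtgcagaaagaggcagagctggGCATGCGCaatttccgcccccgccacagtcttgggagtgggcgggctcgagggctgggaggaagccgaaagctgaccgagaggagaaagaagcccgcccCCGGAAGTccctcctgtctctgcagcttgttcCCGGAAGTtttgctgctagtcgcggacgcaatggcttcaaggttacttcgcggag
COX8A (chr11:63974370-63974669, plus strand): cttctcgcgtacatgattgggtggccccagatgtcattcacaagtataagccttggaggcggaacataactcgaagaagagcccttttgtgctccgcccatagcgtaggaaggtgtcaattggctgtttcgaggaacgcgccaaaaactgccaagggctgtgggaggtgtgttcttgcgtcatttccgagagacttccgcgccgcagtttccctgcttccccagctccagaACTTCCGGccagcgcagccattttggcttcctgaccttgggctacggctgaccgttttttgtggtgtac
ATP5I (chr4:674227-674526, minus strand): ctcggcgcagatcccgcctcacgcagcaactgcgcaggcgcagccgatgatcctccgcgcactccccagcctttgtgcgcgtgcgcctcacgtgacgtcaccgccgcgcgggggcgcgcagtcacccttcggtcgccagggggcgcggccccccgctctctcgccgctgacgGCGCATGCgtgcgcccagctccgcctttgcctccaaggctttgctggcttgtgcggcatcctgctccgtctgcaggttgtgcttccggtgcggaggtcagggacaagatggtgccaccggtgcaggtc
ATP5G1 (chr17:48892537-48892836, plus strand): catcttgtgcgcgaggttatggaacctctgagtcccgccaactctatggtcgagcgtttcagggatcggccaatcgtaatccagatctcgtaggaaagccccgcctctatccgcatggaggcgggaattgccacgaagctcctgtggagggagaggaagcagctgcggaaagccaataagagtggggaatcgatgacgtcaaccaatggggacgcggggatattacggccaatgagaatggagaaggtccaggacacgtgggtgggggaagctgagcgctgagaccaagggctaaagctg
The NDUFA3 window held 1 YY1 motif, SDHB held 1 NRF1 and 1 YY1 motif, COX5B held 1 NRF1 motif and an ETS motif at 2 places, COX8A held 1 ETS motif and ATP5I 1 NRF1 motif. The window of ATP5G1, the member with the lowest fitted fold change in the combination, held none of these letters.

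Over all members with a window, the NRF1 motif was in 14 of 70, or 20% (spelled GCGCATGC), against 4.89% of the windows of 15843 protein-coding genes. The ETS motif was in 11 of 70 (15.7%), against 6.98% of all coding genes, and the YY1 motif in 12 of 70 (17.1%), against 4.67%. The core of the hypoxia-response element, ACGTG, was in 18 of 70 (25.7%), against 28.5%, and the FOXO motif GTAAACA was in 0 of 70, against 3.75%. These shares count letters in a window and say nothing on binding. The NRF1 motif was found in 2 of 3 windows of complex II, 6 of 35 of complex I, 2 of 13 of complex IV, 4 of 12 of complex V and 0 of 7 of complex III, and the ETS motif in 3 of those 7 complex III windows.

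The question the design puts to these genes is what AKT inhibition, EZH2 inhibition and both do to their expression. Summed over all 88 members, the level was 10763, 10157 and 10071 CPM in combination libraries A, B and C, 10537, 12052 and 12019 CPM with ipatasertib, 12882, 11944 and 12218 CPM with tazemetostat, and 13955, 14656 and 14383 CPM with DMSO. Every treated library lay below every DMSO library. The ipatasertib A library lay below both of its partners and, unlike them, among the combination libraries. The mean was 10330 ± 377 CPM with the combination, or 72.1% of DMSO, 11536 ± 866 CPM with ipatasertib, or 80.5%, and 12348 ± 482 CPM with tazemetostat, or 86.2%, against 14332 ± 353 CPM with DMSO (SD, n = 3 each). CPM are shares of the RNA sequenced: less of a transcript per cell and fewer cells that carry it cannot be told apart in such bulk samples.

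**Figure D1:**
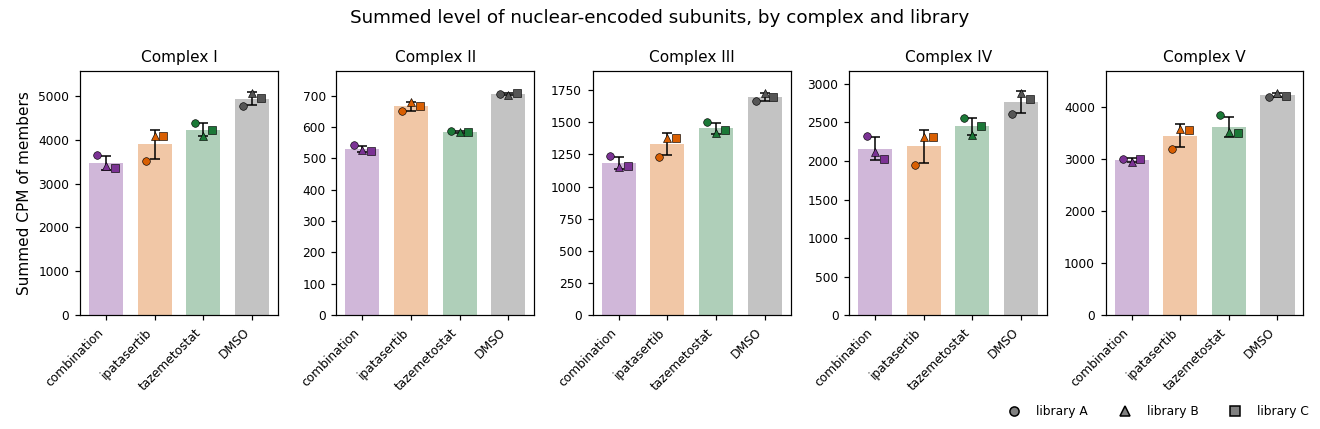
Summed CPM of the members of complexes I to V in each library, with the group mean as a bar, its SD as a whisker and the A, B and C libraries as circles, triangles and squares. In each complex the treated means lie below DMSO; for complex IV the combination and ipatasertib means are 2157 and 2191 CPM, and for complex II the ipatasertib mean, 666 CPM, lies nearest to the DMSO mean, 705 CPM.

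Of the 88 members, 82 had enough reads to be tested. The fit was edgeR's quasi-likelihood test over all 14571 genes that passed the filter on low counts, with p-values adjusted over all of them and a threshold of 0.05. With the combination, 71 of the 82 members fell and 0 rose, where 30.0% of all tested genes fell and 34.4% rose; 72 members were lower and 0 higher at an unadjusted p under 0.05, and DESeq2 also gave 0 higher. With ipatasertib, 64 members fell and 2 rose, where 23.1% of all tested genes fell and 24.0% rose. With tazemetostat, 54 members fell and 1 rose, where 21.3% of all tested genes fell and 25.9% rose. The median log2 fold change of the members was -0.52 with the combination, -0.35 with ipatasertib and -0.24 with tazemetostat, while that of all tested genes was 0.03, 0.00 and 0.01. These 3 comparisons share the DMSO libraries.

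With the combination, all 3 libraries lay below all 3 DMSO libraries for 71 of 82 members, and for 32.4% of all tested genes. With ipatasertib this held for 68 members and 29.2% of all tested genes, and with tazemetostat for 60 members and 26.8%. All 3 libraries lay above DMSO for 0 members and 36.4% of all tested genes with the combination, for 3 members and 29.8% with ipatasertib, and for 3 members and 30.0% with tazemetostat. Without the A libraries, which stood apart, 73 members fell with the combination, 63 with ipatasertib and 65 with tazemetostat, where 31.8%, 24.6% and 26.1% of all tested genes fell. Without TMM factors, on library totals alone, the count with tazemetostat was 33 lower and 2 higher, where 14.8% of all tested genes were lower and 31.4% higher.

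**Figure D2:**
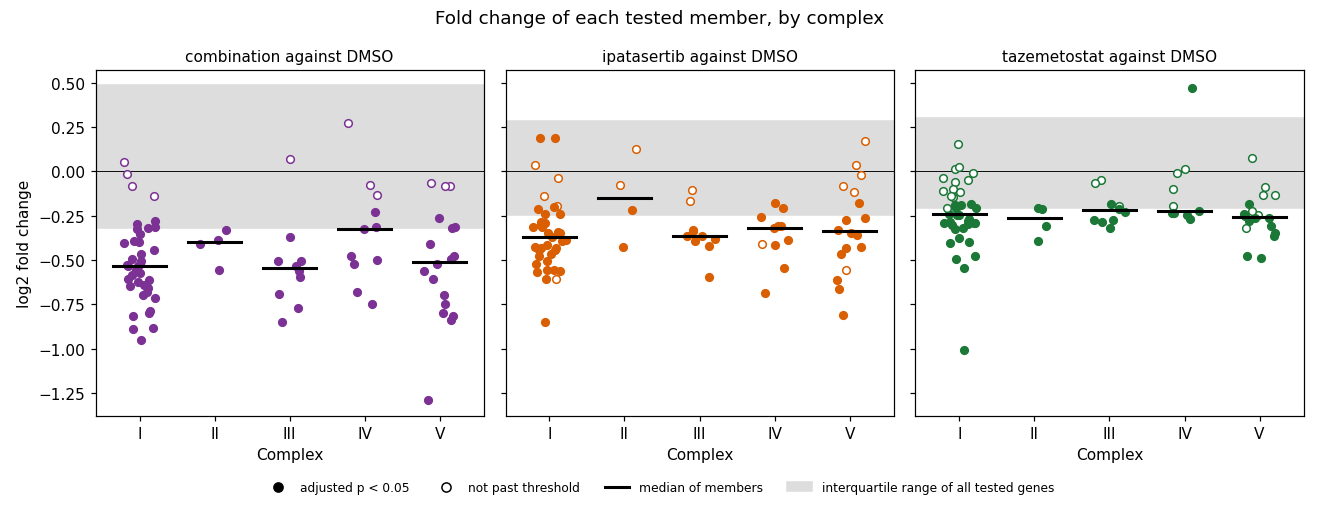
Log2 fold change against DMSO of each of the 82 tested members, by complex, for the combination, ipatasertib and tazemetostat; filled points passed an adjusted p of 0.05, black lines are the members' medians and the grey band is the interquartile range of all 14571 tested genes. In the combination the complex I median is -0.54 and the complex III median -0.55, both below the grey band.

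Some measured properties of the libraries and genes moved with these results. The share of counted reads that fell in no gene was 25.2% ± 0.952 with the combination, 23.3% ± 1.0 with ipatasertib and 21.1% ± 1.64 with tazemetostat, against 19.9% ± 1.43 with DMSO (SD, n = 3 each), and its part in the result was not tested. The median length of a gene's coding transcripts in GENCODE was known for 13367 of the 14571 tested genes. By this length the members are short: 61 of the 82 were among the 2673 genes in the shortest of 5 nearly equal classes. In that class the median log2 fold change was -0.07 with the combination, -0.06 with ipatasertib and -0.06 with tazemetostat, and in the longest class it was 0.23, 0.11 and 0.14. The median of the members lay below that of the shortest class in each comparison with DMSO. The part of length in the result was not tested.

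Complex I oxidises NADH in an arm that projects into the matrix. Its nuclear-encoded catalytic core has 7 genes, which hold the flavin site and the iron-sulphur clusters. All 7 core genes fell with the combination, with a median log2 fold change of -0.57; 5 fell and 1 rose with ipatasertib (median -0.29), and 5 fell with tazemetostat (median -0.21).
NDUFS8, which carries a pair of iron-sulphur clusters near the end of the electron path, had 74.1, 63.9 and 61.5 CPM with the combination, 78.2, 101 and 98.1 CPM with ipatasertib and 95, 89.6 and 94.2 CPM with tazemetostat, against 118, 132 and 119.8 CPM with DMSO. Its combination libraries were the lowest and its DMSO libraries the highest, and the single-drug libraries lay between them without overlapping either group. It fell in the combination (log2 fold change -0.89 ± 0.0890, adjusted p = 1.53e-08). Here and for every log2 fold change, ± gives the standard error of the fit. NDUFS1, the largest iron-sulphur subunit, had 76.5, 77.2 and 86.9 CPM with the combination, 103, 98.9 and 98.6 CPM with ipatasertib and 111, 105 and 104 CPM with tazemetostat, against 125, 122 and 119 CPM with DMSO. Each treated group lay below DMSO without overlap, and the combination lay below both single drugs (log2 fold change -0.61 ± 0.0668, adjusted p = 5.2e-08 against DMSO). NDUFS7, which carries the last cluster before ubiquinone, had 25.5, 22.2 and 19.7 CPM with the combination, 26.5, 33.2 and 33.1 CPM with ipatasertib and 31.3, 30.8 and 33.1 CPM with tazemetostat, against 36, 40.7 and 33.2 CPM with DMSO. It fell in the combination (log2 fold change -0.70 ± 0.105, adjusted p = 5.15e-06). Its ipatasertib and tazemetostat libraries all lay below DMSO, though the highest of them came close to the lowest DMSO library. NDUFS7 was called lower with ipatasertib and was not called with tazemetostat. NDUFS3, another core subunit, fell too (log2 fold change -0.52 ± 0.0809, adjusted p = 7.54e-06). NDUFV2, the partner of the flavin subunit, had 243, 263 and 259.9 CPM with the combination and 305, 243 and 262 CPM with tazemetostat, against 357, 397 and 385 CPM with DMSO. It fell in both (log2 fold change -0.57 ± 0.0933, adjusted p = 1.43e-05 in the combination and log2 fold change -0.49 ± 0.0927, adjusted p = 0.000159 with tazemetostat).

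The core gene that went another way was NDUFV1, which binds NADH and the flavin cofactor. It had 164, 130.4 and 143 CPM with the combination, 212, 217 and 232 CPM with ipatasertib and 156, 179 and 173 CPM with tazemetostat, against 196, 198 and 187 CPM with DMSO. The ipatasertib libraries were all above DMSO, and the combination libraries all below DMSO. NDUFV1 rose slightly with ipatasertib (log2 fold change 0.19 ± 0.0760, adjusted p = 0.0472) and fell in the combination against DMSO (log2 fold change -0.41 ± 0.0772, adjusted p = 9.04e-05) and against ipatasertib (log2 fold change -0.59 ± 0.0773, adjusted p = 1.72e-06). The rise with ipatasertib did not pass the threshold with RLE factors, in DESeq2, with the letter as a block, or when any DMSO or ipatasertib library, tazemetostat B or C, or combination B or C was left out. NDUFA10, an accessory subunit of the membrane arm, was the other complex I gene that rose with ipatasertib (log2 fold change 0.19 ± 0.0654, adjusted p = 0.0211), at 83.5, 81.4 and 84.5 CPM against 74.8, 74.3 and 69.8 CPM with DMSO. This call was lost without a filter on low counts and without DMSO B or C or ipatasertib A or C.

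The other complex I symbols are mostly accessory subunits, which surround the core and stabilise it. Of the 32 tested, 28 fell with the combination, 27 fell and 1 rose with ipatasertib, and 21 fell with tazemetostat. NDUFAB1, the mitochondrial acyl carrier protein, which also serves fatty acid and lipoate synthesis, had 43.7, 40.8 and 39.9 CPM with the combination, 48.1, 56 and 56.6 CPM with ipatasertib and 59.6, 51.8 and 54.4 CPM with tazemetostat, against 73.1, 79.6 and 78.3 CPM with DMSO. Its groups were ordered combination, then both single drugs, then DMSO, and the single drugs overlapped each other (log2 fold change -0.89 ± 0.0799, adjusted p = 2.52e-09 in the combination). NDUFA3, a small membrane-arm subunit whose promoter is shown above, had 32.7, 29.3 and 23.5 CPM with the combination, 22.6, 29.8 and 30.0 CPM with ipatasertib and 42.6, 37 and 42.3 CPM with tazemetostat, against 45.5, 50.8 and 51.9 CPM with DMSO. The combination and ipatasertib libraries overlapped and all lay below tazemetostat, which lay below DMSO (log2 fold change -0.85 ± 0.109, adjusted p = 1.8e-06 with ipatasertib, log2 fold change -0.79 ± 0.112, adjusted p = 2.5e-06 in the combination). NDUFA6, a member of the LYR-motif family that binds the acyl carrier protein, was likewise below DMSO in both groups with ipatasertib, with 108, 99 and 96.6 CPM in the combination and 91.2, 111 and 112 CPM with ipatasertib, against 154, 160.3 and 165 CPM with DMSO (log2 fold change -0.61 ± 0.0787, adjusted p = 1.88e-06 with ipatasertib). NDUFC2, a membrane-arm subunit, had the largest fall with tazemetostat among complex I genes of at least 5 CPM (log2 fold change -0.55 ± 0.111, adjusted p = 0.000354), at 17.8, 17.9 and 22.2 CPM against 25.3, 26.7 and 32.6 CPM with DMSO.
NDUFA9 and NDUFA13 stood out where ipatasertib was added to tazemetostat. NDUFA9, which sits near the ubiquinone site, had 57.1, 62 and 62.6 CPM with the combination, 62.4, 66.3 and 60.5 CPM with ipatasertib and 102, 92 and 89.5 CPM with tazemetostat, against 97.6, 90.1 and 90.2 CPM with DMSO. The tazemetostat and DMSO libraries overlapped, while the combination and ipatasertib libraries lay together below them (log2 fold change -0.64 ± 0.0723, adjusted p = 2.45e-07 for the combination against tazemetostat). NDUFA13, also known as the cell-death regulator GRIM-19, fell in that comparison (log2 fold change -0.57 ± 0.0760, adjusted p = 2.25e-06), with 126, 112 and 108 CPM in the combination against 175, 166 and 175 CPM with tazemetostat. NDUFS4, whose loss causes Leigh syndrome, was called in no comparison, at 40.1, 37.2 and 41.8 CPM in the combination, 36.7, 39.7 and 41.1 CPM with ipatasertib, 46.5, 43.1 and 44.7 CPM with tazemetostat and 42.3, 41.4 and 36.9 CPM with DMSO. It was picked for mention after its values were seen.

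**Figure D3:**
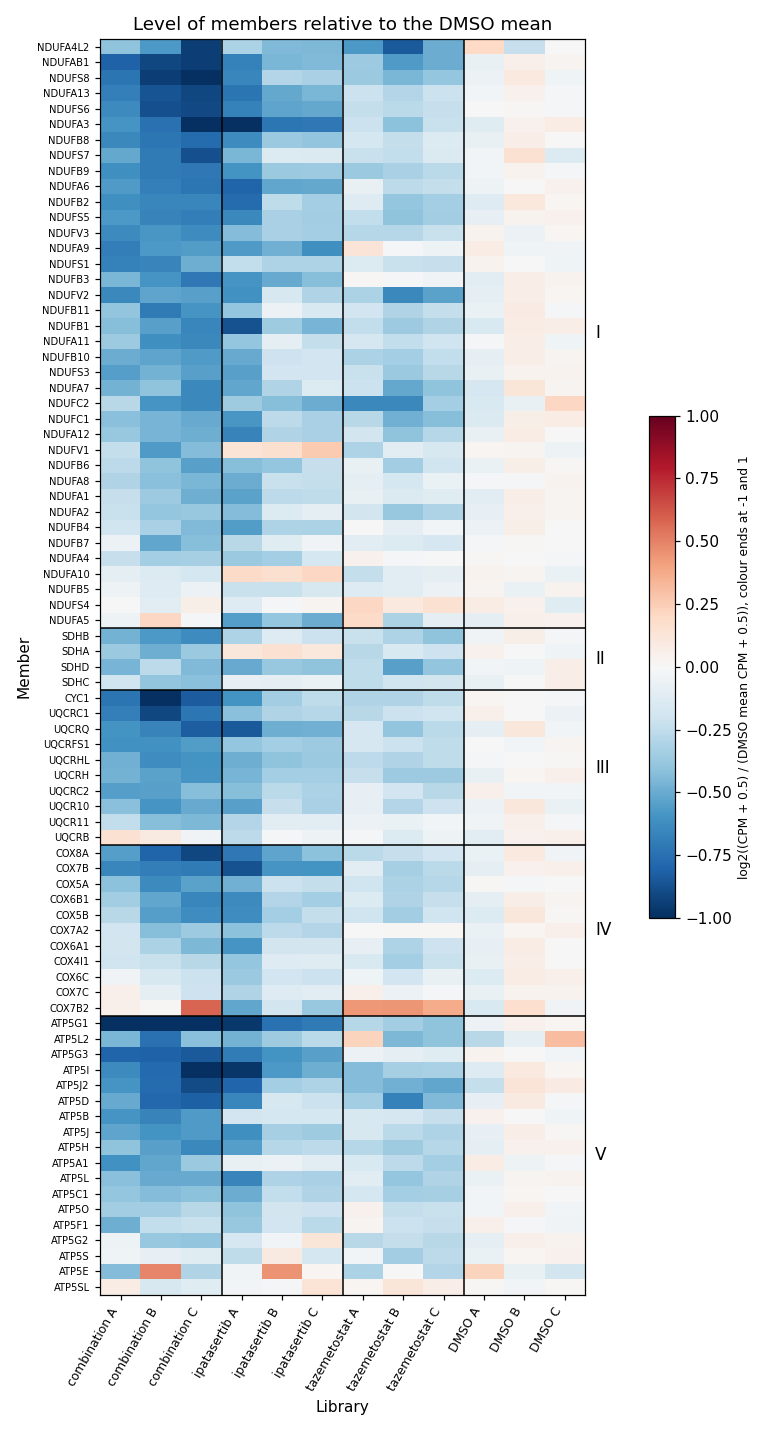
Level of the tested members, apart from 1, in each library as log2 of (CPM + 0.5) over the DMSO mean (CPM + 0.5); columns are libraries A, B and C of the combination, ipatasertib, tazemetostat and DMSO, rows are grouped by complex and ordered by the fitted change in the combination, and colours end at -1 and 1. The combination columns are blue over most rows, for ATP5G1 beyond the end of the scale, while NDUFV1, NDUFA10 and SDHA are red with ipatasertib and COX7B2 is red with tazemetostat.

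Complex II, succinate dehydrogenase, belongs both to the chain and to the TCA cycle and has no mitochondrially encoded subunit. All 4 of its genes fell with the combination, all 4 fell with tazemetostat and 2 fell with ipatasertib. SDHA, the flavoprotein that oxidises succinate, had 244, 225 and 243 CPM with the combination, 341, 349.9 and 340.0 CPM with ipatasertib and 260.4, 284 and 273 CPM with tazemetostat, against 326, 315 and 306 CPM with DMSO. The ipatasertib libraries were the highest of all and the combination libraries the lowest, with no overlap between any 2 groups. SDHA fell with tazemetostat (log2 fold change -0.21 ± 0.0615, adjusted p = 0.00771) and in the combination (log2 fold change -0.41 ± 0.0620, adjusted p = 5.56e-06), and was not called with ipatasertib (log2 fold change 0.12 ± 0.0614, adjusted p = 0.102). That value passed the threshold without the A libraries, on library totals, and in a fit of those 2 groups alone. The fall with tazemetostat missed it on library totals. SDHB, the iron-sulphur subunit, had 64.4, 59.8 and 57.5 CPM with the combination, 72, 81.7 and 77 CPM with ipatasertib and 76.5, 72.2 and 67.6 CPM with tazemetostat, against 87.2, 92.9 and 88.1 CPM with DMSO. Here every treated library was below DMSO and every combination library below the single drugs (log2 fold change -0.56 ± 0.0730, adjusted p = 7.36e-07 in the combination). SDHC, a membrane anchor with part of the haem site, fell as well (log2 fold change -0.33 ± 0.0691, adjusted p = 0.000229 in the combination). SDHD, the other anchor, had 137, 159 and 140.1 CPM with the combination, 134, 146 and 144 CPM with ipatasertib and 159.6, 130.4 and 145 CPM with tazemetostat, against 186, 185 and 199.5 CPM with DMSO. All 3 treated groups overlapped one another and lay below DMSO (log2 fold change -0.39 ± 0.0766, adjusted p = 0.000138 in the combination, log2 fold change -0.43 ± 0.0760, adjusted p = 8.66e-05 with ipatasertib, log2 fold change -0.39 ± 0.0759, adjusted p = 0.000206 with tazemetostat). SDHA has processed copies elsewhere in the genome; how the authors counted reads that match several places is not stated.

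Complex III passes electrons from ubiquinol to cytochrome c. Of its 10 genes, 9 fell with the combination, 8 with ipatasertib and 7 with tazemetostat. CYC1, cytochrome c1, the haem protein that hands the electron to cytochrome c, had 53, 43.7 and 49.3 CPM with the combination, 57.8, 69.2 and 73.7 CPM with ipatasertib and 71.5, 71.6 and 73.7 CPM with tazemetostat, against 89.1, 88.3 and 86.6 CPM with DMSO. The combination libraries lay below all others, the single-drug groups overlapped, and DMSO lay above all. The fall in the combination was among the larger ones (log2 fold change -0.85 ± 0.0846, adjusted p = 1.26e-08), and CYC1 was also lower in the combination than with ipatasertib (log2 fold change -0.46 ± 0.0854, adjusted p = 0.000153) or tazemetostat (log2 fold change -0.57 ± 0.0851, adjusted p = 1.18e-05). UQCRC1, a core protein on the matrix side, had 141, 120.4 and 138 CPM with the combination, 169.7, 184 and 186 CPM with ipatasertib and 187, 196 and 197 CPM with tazemetostat, against 234, 228 and 218 CPM with DMSO. Its combination libraries were below all others (log2 fold change -0.77 ± 0.0691, adjusted p = 2.64e-09 against DMSO). UQCRQ, a small subunit beside cytochrome b, had the largest fall of complex III with ipatasertib (log2 fold change -0.60 ± 0.0890, adjusted p = 1.16e-05), at 98.7, 126 and 126 CPM against 166, 191 and 173 CPM with DMSO. UQCRH, the hinge protein that bridges cytochrome c1 to cytochrome c, had the largest fall with tazemetostat (log2 fold change -0.32 ± 0.0651, adjusted p = 0.00037), at 262, 239.6 and 240.1 CPM against 293, 312 and 320.2 CPM. Its reads may be divided with UQCRHL, so its level is uncertain. UQCRB, which binds ubiquinone near cytochrome b, was called in no comparison. It had 184, 175 and 161 CPM with the combination, 138, 163 and 159.7 CPM with ipatasertib and 164, 149.9 and 159 CPM with tazemetostat, against 154, 170.3 and 171 CPM with DMSO, and the groups overlapped.

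Complex IV, cytochrome c oxidase, reduces oxygen, and its nuclear-encoded subunits regulate the mitochondrially encoded catalytic ones. Of 11 tested genes, 8 fell with the combination, 10 with ipatasertib and 6 with tazemetostat, and COX7B2 rose with tazemetostat. COX7B, a small subunit needed for assembly, had 167, 163 and 161 CPM with the combination, 143, 174 and 173 CPM with ipatasertib and 245, 209 and 217 CPM with tazemetostat, against 245, 271 and 272 CPM with DMSO. The combination and ipatasertib libraries overlapped and lay below the other groups (log2 fold change -0.68 ± 0.0780, adjusted p = 3.4e-07 with ipatasertib, log2 fold change -0.68 ± 0.0786, adjusted p = 1.18e-07 in the combination). COX8A, the smallest subunit, had 164, 138 and 127 CPM with the combination, 146, 166 and 181 CPM with ipatasertib and 199, 204 and 209.8 CPM with tazemetostat, against 229, 257 and 234 CPM with DMSO, and fell in the combination against DMSO (log2 fold change -0.75 ± 0.0862, adjusted p = 1.27e-07) and against tazemetostat (log2 fold change -0.51 ± 0.0862, adjusted p = 4.79e-05). COX4I1, the subunit through which ATP slows the enzyme, fell slightly: it had 556, 545 and 527 CPM with the combination against 607, 669.6 and 636 CPM with DMSO (log2 fold change -0.23 ± 0.0729, adjusted p = 0.00824). COX5A, a matrix-side subunit, had the largest fall with tazemetostat (log2 fold change -0.27 ± 0.0746, adjusted p = 0.00554), at 136, 125 and 128 CPM against 157, 154 and 156 CPM with DMSO.
COX7B2, a testis-type relative of COX7B, was low, with 3.99, 3.87 and 5.99 CPM with the combination, 2.53, 3.31 and 2.84 CPM with ipatasertib and 5.35, 5.38 and 5.11 CPM with tazemetostat, against 3.41, 4.36 and 3.74 CPM with DMSO. It rose with tazemetostat (log2 fold change 0.47 ± 0.153, adjusted p = 0.0149) and was higher in the combination than with ipatasertib (log2 fold change 0.68 ± 0.178, adjusted p = 0.00364). The first call was lost without DMSO A or C, without tazemetostat B or without all A libraries, and the second without combination C. The tissue-specific isoforms of complex IV had too few reads to test. COX4I2, the lung-type and hypoxia-linked form of COX4I1, had 0 counts in the combination libraries, 0 with ipatasertib, 1 with tazemetostat and 3 with DMSO. The heart and muscle forms COX6A2 and COX7A1, and COX6B2 and COX8C, reached at most 9 counts in any library.

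Complex V couples proton flow to ATP synthesis through a membrane rotor and the F1 head. Of its 18 genes, 15 fell with the combination, 12 with ipatasertib and 11 with tazemetostat. ATP5G1, ATP5G2 and ATP5G3 encode the same mature c subunit of the rotor ring behind different import signals, so the 3 genes feed a single protein. ATP5G1 had 40.6, 36.1 and 32.5 CPM with the combination, 45.4, 52.9 and 54.3 CPM with ipatasertib and 73, 69.9 and 67.2 CPM with tazemetostat, against 85.5, 91.7 and 90.2 CPM with DMSO. No 2 groups overlapped, and the combination lay at 36.4 ± 4.05 CPM, against 89.1 ± 3.22 CPM with DMSO (SD, n = 3 each). ATP5G1 fell in the combination (log2 fold change -1.29 ± 0.0851, adjusted p = 1.64e-11), with ipatasertib (log2 fold change -0.81 ± 0.0813, adjusted p = 5.91e-08) and with tazemetostat (log2 fold change -0.35 ± 0.0800, adjusted p = 0.00113), and was lower in the combination than with either drug (log2 fold change -0.48 ± 0.0864, adjusted p = 0.000103 against ipatasertib, log2 fold change -0.94 ± 0.0856, adjusted p = 9.96e-09 against tazemetostat). ATP5G3 had 168, 167 and 164 CPM with the combination, 179.7, 193 and 200.3 CPM with ipatasertib and 281, 275 and 269 CPM with tazemetostat, against 299, 292 and 287 CPM with DMSO. It fell in the combination (log2 fold change -0.82 ± 0.0614, adjusted p = 1.21e-10) and was lower there than with tazemetostat (log2 fold change -0.73 ± 0.0614, adjusted p = 2.85e-09), while tazemetostat was not called against DMSO although its libraries all lay below. ATP5G2 had 143, 114 and 113 CPM in the combination, 132, 146 and 161 CPM with ipatasertib and 122, 126 and 122 CPM with tazemetostat, against 139.5, 153 and 152 CPM with DMSO. It fell in the combination (log2 fold change -0.27 ± 0.0856, adjusted p = 0.00979), a call lost without combination C.

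In the F1 head, ATP5B, the catalytic beta subunit, had 439.7, 416 and 448 CPM with the combination, 578, 587 and 586 CPM with ipatasertib and 594, 588 and 564 CPM with tazemetostat, against 683, 660.3 and 643 CPM with DMSO. The single drugs overlapped, DMSO lay above them and the combination below them (log2 fold change -0.61 ± 0.0590, adjusted p = 8.04e-09 against DMSO, log2 fold change -0.43 ± 0.0589, adjusted p = 3.69e-06 against ipatasertib). ATP5A1, the alpha subunit, had 364, 388 and 429.6 CPM with the combination, 527, 531 and 513 CPM with ipatasertib and 499, 462 and 437 CPM with tazemetostat, against 582, 535 and 546 CPM with DMSO. It fell in the combination (log2 fold change -0.49 ± 0.0695, adjusted p = 2.13e-06), where all 3 libraries lay below those of the other groups. ATP5D, the delta subunit of the central stalk, had the largest fall with tazemetostat in complex V (log2 fold change -0.49 ± 0.109, adjusted p = 0.000891), at 55.8, 44.4 and 52.4 CPM against 67.2, 75.7 and 70.8 CPM with DMSO. ATP5J2, a membrane subunit, followed it (log2 fold change -0.48 ± 0.110, adjusted p = 0.00113). ATP5I, the e subunit, which helps ATP synthase dimers shape the cristae, fell with ipatasertib (log2 fold change -0.67 ± 0.103, adjusted p = 1.67e-05), at 50.6, 66.9 and 71.1 CPM against 91.4, 107 and 101 CPM with DMSO. ATP5E, ATP5S and ATP5SL were called in no comparison with DMSO; ATP5E had only 1.16 to 2.65 CPM in any library.

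**Figure D4:**
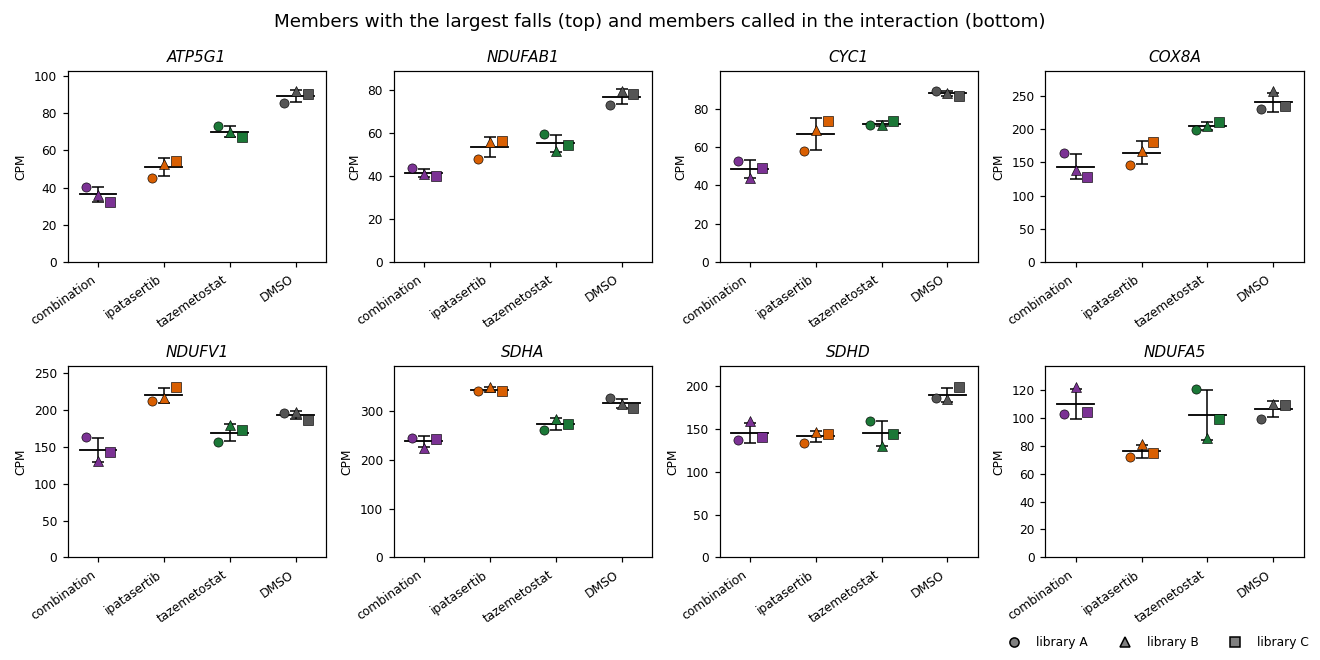
CPM of 8 members in each library, with group means and SD as lines and whiskers and libraries A, B and C as circles, triangles and squares. ATP5G1, NDUFAB1, CYC1 and COX8A are lowest with the combination and highest with DMSO; NDUFV1 and SDHA are highest with ipatasertib, NDUFA5 is lowest with ipatasertib, and SDHD is about level in the 3 treated groups.

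The combination was then set against each drug alone. Against ipatasertib, 31 of 82 members were lower and 2 higher, where 20.7% of all tested genes were lower and 24.2% higher, and the members' median log2 fold change was -0.17. This count depended on the libraries kept. It was 46 without ipatasertib A, where 20.6% of all tested genes were lower, and 60 with the B and C libraries alone, where 26.7% were. It was 25 without ipatasertib B, where 19.8% of all tested genes were lower, and 24 without ipatasertib C, where 17.4% were. With 1 library left out, the count was lowest without combination C. Against tazemetostat, 50 members were lower and 0 higher, where 23.1% of all tested genes were lower and 23.2% higher, with a median of -0.24. Of the 82 members, 0 were higher at an unadjusted p under 0.05 and in DESeq2, and 1 with the B and C libraries alone. The combination had the lowest group mean of 64 of the 82 members, ipatasertib of 12, tazemetostat of 6 and DMSO of 0. The groups were not ranked this way for all tested genes, so no share stands beside these counts.

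By complex, the counts and medians for the combination against ipatasertib were as follows, without a test between complexes. For the complex I core, 6 of 7 genes were lower in the combination than with ipatasertib (median -0.32), and for complex II 3 of 4 (median -0.30). For complex III it was 4 of 10 (median -0.16) and for complex V 6 of 18 (median -0.18). For complex IV, 1 of 11 was lower and 1 higher, with a median of -0.01. COX5A was the lower one (log2 fold change -0.22 ± 0.0762, adjusted p = 0.0239), a call lost without ipatasertib B or C or combination B or C, and COX7B2 the higher one. The summed level of complex IV was 2323, 2117 and 2032 CPM in combination libraries A, B and C and 1944, 2310 and 2318 CPM in the ipatasertib ones, against 2612, 2883 and 2802 CPM with DMSO. The summed level of complex II was 542, 527 and 523 CPM with the combination and 652, 681 and 666 CPM with ipatasertib, against 704, 703 and 708 CPM with DMSO.

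The interaction asks whether ipatasertib acted differently on the log2 scale in cells that also had tazemetostat. It was called for 4 of 82 members: 2 with a positive term, where 5.96% of all tested genes had one, and 2 with a negative term, where 6.01% had one. NDUFA5, an accessory subunit of the matrix arm, had 103, 122 and 104 CPM with the combination, 72.1, 81.2 and 75.1 CPM with ipatasertib and 121, 85.2 and 99.5 CPM with tazemetostat, against 99.4, 109.8 and 109 CPM with DMSO. The ipatasertib libraries were below all others, and the remaining groups overlapped. Ipatasertib changed NDUFA5 by 0.11 in the presence of tazemetostat, against -0.48 in its absence (interaction 0.59 ± 0.138, adjusted p = 0.0109), and NDUFA5 was higher in the combination than with ipatasertib (log2 fold change 0.53 ± 0.0988, adjusted p = 0.000158). For SDHD the 2 values were 0.01 and -0.43 (interaction 0.43 ± 0.108, adjusted p = 0.0148). For NDUFV1 they were -0.22 and 0.19 (interaction -0.40 ± 0.108, adjusted p = 0.0208), and for SDHA -0.20 and 0.12 (interaction -0.32 ± 0.0873, adjusted p = 0.0211). The NDUFA5 term passed the threshold whichever library was left out, with an adjusted p of at most 0.0405. The other terms did not: leaving out single libraries raised the adjusted p to as much as 0.057 for SDHD, 0.0859 for NDUFV1 and 0.0867 for SDHA, and the SDHA call was also lost with the letter as a block. Without tazemetostat A there were 11 positive terms among the members (13.4%), where 13.7% of all tested genes had one. Without DMSO C, tazemetostat B, tazemetostat C or combination B there were 0 negative terms, where 1.78% to 2.69% of all tested genes had one. The B and C libraries alone gave 12 positive terms (14.6%) and 13 negative ones (15.9%), where 17.8% and 19.5% of all tested genes had such terms.

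The genes around the chain were described from lists of assembly factors, regulators and neighbouring pathways. Their counts stand beside the shares of all tested genes that fell and rose: 30.0% and 34.4% with the combination, 23.1% and 24.0% with ipatasertib, and 21.3% and 25.9% with tazemetostat. Of 13 tested complex I assembly factors, 8 fell with the combination, 7 fell and 1 rose with ipatasertib, and 7 fell with tazemetostat. Among them NDUFAF2, which acts late in its assembly, fell to 17.6, 16 and 14.3 CPM in the combination, against 26.2, 28.5 and 32.5 CPM with DMSO (log2 fold change -0.86 ± 0.105, adjusted p = 2.93e-07). Of 18 complex IV assembly factors, 13 fell with the combination, 9 fell and 2 rose with ipatasertib, and 12 fell with tazemetostat. SCO1, a copper chaperone of complex IV, had 19.8, 21.3 and 22.3 CPM with the combination, 31.9, 32.8 and 30.8 CPM with ipatasertib and 27.5, 27.6 and 26.5 CPM with tazemetostat, against 39.9, 37.5 and 38.7 CPM with DMSO, with no overlap between any 2 groups (log2 fold change -0.88 ± 0.0773, adjusted p = 1.71e-09 in the combination). Of 9 assembly factors of complexes II, III and V, 8 fell with the combination, 4 with ipatasertib and 5 with tazemetostat.
Of 15 tested genes that copy, transcribe or translate mitochondrial DNA, 10 fell with the combination, 6 fell and 2 rose with ipatasertib, and 8 fell with tazemetostat. TFAM, which packages and transcribes mitochondrial DNA, had 65.7, 74.7 and 75.4 CPM with the combination, 99.8, 91 and 88.9 CPM with ipatasertib and 80.4, 63.2 and 66.9 CPM with tazemetostat, against 114, 108 and 110.2 CPM with DMSO. Its tazemetostat and combination libraries overlapped and lay below ipatasertib, which lay below DMSO (log2 fold change -0.66 ± 0.0824, adjusted p = 9.71e-07 with tazemetostat). SLIRP, which with LRPPRC stabilises mitochondrial mRNA, fell in the combination (log2 fold change -0.89 ± 0.0940, adjusted p = 3.05e-08), at 34.4, 26.2 and 27.1 CPM against 52, 57.7 and 54.3 CPM with DMSO.

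Among 11 regulators of the respiratory programme, 2 rose and 6 fell with the combination, 2 rose and 4 fell with ipatasertib, and 2 rose and 4 fell with tazemetostat. The share that rose was 18.2% in each comparison, and the share that fell was 54.5% with the combination and 36.4% with each single drug, against the shares of all tested genes given above. PPARGC1A, which encodes the coactivator PGC-1alpha, known to raise mitochondrial genes in muscle and fat, moved opposite to most members. It had 18.8, 22.5 and 24.6 CPM with the combination, 1.31, 1.44 and 1.62 CPM with ipatasertib and 13.7, 14 and 12.4 CPM with tazemetostat, against 1.06, 1.18 and 0.630 CPM with DMSO. Every tazemetostat and combination library was far above DMSO, and ipatasertib lay only just above it. It rose in the combination (log2 fold change 4.52 ± 0.165, adjusted p = 5.79e-16), with tazemetostat (log2 fold change 3.81 ± 0.169, adjusted p = 5.25e-14) and with ipatasertib (log2 fold change 0.62 ± 0.245, adjusted p = 0.0417), the last call being lost without DMSO C, any ipatasertib library or combination B. MYC, a transcription factor that drives mitochondrial biogenesis, had 32.1, 28.6 and 29.8 CPM with the combination, 101, 98.6 and 105 CPM with ipatasertib and 37.9, 42.2 and 39 CPM with tazemetostat, against 72.4, 68.5 and 67 CPM with DMSO. It rose with ipatasertib (log2 fold change 0.55 ± 0.0682, adjusted p = 1.02e-06) and fell with tazemetostat (log2 fold change -0.80 ± 0.0705, adjusted p = 4.3e-09) and in the combination (log2 fold change -1.20 ± 0.0741, adjusted p = 4.49e-12). GABPB1, the beta subunit of the ETS factor GABP, fell with ipatasertib (log2 fold change -0.55 ± 0.115, adjusted p = 0.000461), at 16.6, 21.1 and 18.7 CPM against 26.6, 27.1 and 28.5 CPM with DMSO. NRF1 itself was called in no comparison with DMSO. The part of these regulators in the changes of the members was not tested.

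**Figure D5:**
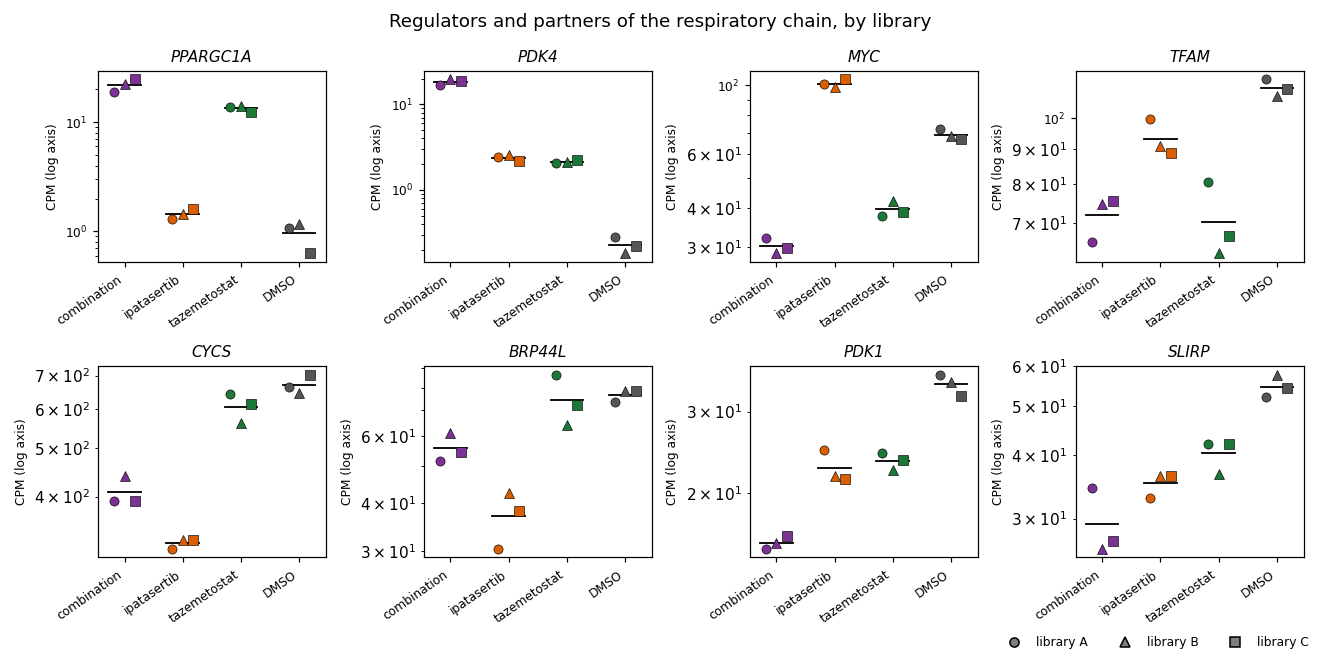
CPM on log axes of 8 genes around the respiratory chain in each library; lines are group means and libraries A, B and C are circles, triangles and squares. PPARGC1A and PDK4 are highest with the combination and lowest with DMSO, MYC is highest with ipatasertib, and CYCS and BRP44L are lowest with ipatasertib.

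The steps that feed the chain also changed. Of 20 genes of the TCA cycle and pyruvate entry, 18 fell with the combination, 11 fell and 1 rose with ipatasertib, and 12 fell and 1 rose with tazemetostat; the list holds no complex II gene. DLAT and PDHA1, subunits of the pyruvate dehydrogenase complex, fell in the combination (log2 fold change -0.81 ± 0.0646, adjusted p = 3.53e-10 for DLAT, log2 fold change -0.76 ± 0.0640, adjusted p = 7.61e-10 for PDHA1). The 4 pyruvate dehydrogenase kinases, which switch that complex off, split. PDK4 had 16.8, 19.5 and 18.7 CPM with the combination, 2.44, 2.56 and 2.17 CPM with ipatasertib and 2.04, 2.13 and 2.25 CPM with tazemetostat, against 0.284, 0.182 and 0.222 CPM with DMSO. It rose in the combination (log2 fold change 6.26 ± 0.182, adjusted p = 9.06e-18), with ipatasertib (log2 fold change 3.32 ± 0.249, adjusted p = 6.44e-10) and with tazemetostat (log2 fold change 3.17 ± 0.253, adjusted p = 8.66e-10). Its DMSO level rests on few reads, 18 counts over the 3 libraries. PDK2 rose with ipatasertib (log2 fold change 0.89 ± 0.0863, adjusted p = 3.66e-08). PDK1, a hypoxia-induced form, fell in the combination (log2 fold change -1.14 ± 0.0868, adjusted p = 1.43e-10), at 15.1, 15.5 and 16.1 CPM against 36, 34.7 and 32.4 CPM with DMSO.
Of 18 tested electron carriers, nucleotide carriers and uncoupling genes, 1 rose and 11 fell with the combination, 9 fell with ipatasertib and 5 fell with tazemetostat. CYCS, cytochrome c itself, had 391, 440.5 and 392 CPM with the combination, 314, 327 and 327 CPM with ipatasertib and 642, 562 and 614 CPM with tazemetostat, against 665, 644 and 702 CPM with DMSO. The ipatasertib libraries were the lowest, below the combination, which lay below tazemetostat and DMSO. CYCS fell with ipatasertib (log2 fold change -1.05 ± 0.0680, adjusted p = 7.36e-11) and in the combination (log2 fold change -0.72 ± 0.0677, adjusted p = 5.69e-09), and the interaction was called (interaction 0.48 ± 0.0953, adjusted p = 0.00375). BRP44L, a subunit of the mitochondrial pyruvate carrier, showed the same order, with 51.6, 61.1 and 54.6 CPM in the combination, 30.4, 42.4 and 38 CPM with ipatasertib and 86.6, 64.1 and 72.3 CPM with tazemetostat, against 73.3, 78.4 and 78.4 CPM with DMSO (log2 fold change -1.06 ± 0.108, adjusted p = 7.22e-08 with ipatasertib).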

How the data were processed

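Poly(A) RNA of 12 MDA-MB-468 libraries was analysed from the raw read counts per gene symbol that the authors deposited for each library. Per the labels' protocols, RNA was extracted with the Qiagen RNeasy Plus kit and libraries were prepared with Kapa Hyper Prep. The submitters' processing notes list hg19 as the build and DESeq2, HTSeq, SAMtools and STAR as tools, without versions. The annotation and the strand setting of the counting are unstated, so reads of overlapping or near-identical genes may be mixed. A deposited table of normalised values was not used. Promoter windows come from RefSeq on GRCh38.p14 and transcript lengths from GENCODE, both as descriptions.

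Totals and tests used only the rows of named genes. Genes took on average 61.9% of all counts with the combination, 63.2% with ipatasertib, 66.2% with tazemetostat and 66.3% with DMSO. Reads outside any annotated feature took 25.2%, 23.3%, 21.1% and 19.9% in the same groups.

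Counts were fitted with edgeR 4.0.16 in R 4.3.3. Genes were filtered with filterByExpr at a minimum count of 10 and scaled with TMM factors. The 12 libraries entered 1 fit with a mean per group, which leaves 8 residual degrees of freedom. The test was the quasi-likelihood F-test with the robust option, and p-values were adjusted by Benjamini-Hochberg over 14571 genes, with a threshold of 0.05. The pipeline was tested on simulated data. CPM are counts over the TMM-scaled total of the filtered genes. A floor of 3 counts corresponds to 0.106 to 0.228 CPM and covers counting error only.

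There were 6 comparisons. Each treatment was set against DMSO, and the combination was set against ipatasertib and against tazemetostat. The interaction is the change from tazemetostat to the combination minus the change from DMSO to ipatasertib. Alternatives changed the scaling (RLE, library totals), the tool (DESeq2 1.42.0), the count filter, the groups in the fit, a block by letter, the libraries kept, the members and the threshold. Members, lists and tests were chosen with earlier results of these data known. Named genes are a panel of core subunits and isoform pairs, then up to 2 called rises and falls per complex and comparison at 5 CPM or more, then up to 2 changes per list. Not all of them are printed, and genes named outside this rule were picked after their values were seen. The values of 1 member are not reported here, although counts and medians over members include it.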

Additional observations from a re-analysis of the deposited data

Results flagged for a closer look

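The effect of ipatasertib differed with and without tazemetostat, by edgeR's test of the interaction, for 4 members, which were set apart for that reason alone. CYCS is added because its interaction is printed above. Other genes of the lists were also called, among them 2 positive and 2 negative of 11 regulators. Of all tested genes, 5.96% had a positive and 6.01% a negative term. The interaction was 0.59 for NDUFA5 (0.11 with tazemetostat, against -0.48 without; adjusted p = 0.0109), 0.43 for SDHD (0.01 against -0.43; adjusted p = 0.0148), -0.40 for NDUFV1 (-0.22 against 0.19; adjusted p = 0.0208) and -0.32 for SDHA (-0.20 against 0.12; adjusted p = 0.0211), all on the log2 scale. For CYCS it was 0.48 (-0.57 against -1.05; adjusted p = 0.00375). No test for single outlying libraries within a group was run, since groups of 3 are too small for it. The chi-square statistics between libraries given above, by which the A libraries stood apart, are descriptive.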

How the results depend on the processing

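Apart from leaving out single libraries, the alternatives gave 69 to 73 members lower with the combination, 54 to 68 with ipatasertib and 33 to 65 with tazemetostat. The lowest tazemetostat count came from library totals without factors (33 lower, 2 higher) and from an adjusted p under 0.01 (33 lower, 0 higher). The 54 with ipatasertib also came under 0.01. The share of all tested genes under 0.01 was not computed. The 68 came from the fit of ipatasertib and DMSO alone, where 27.8% of all tested genes were lower. The 69 came from established subunits only and from a filter of at least 50 counts in 3 libraries, where 32.6% were. The 73 and the 65 came from the B and C libraries alone, with the shares given above. On library totals, all tested genes split into 4573 higher and 2159 lower with tazemetostat, against 3775 and 3099 with TMM factors. The 2 members higher with ipatasertib became 0 at the stricter threshold. The count was 1 with RLE factors, in DESeq2, without a count filter and under the replicate block. There 23.5%, 21.1%, 17.5% and 22.3% of all tested genes were higher. It was 3 on library totals (27.1% of all tested genes) and in the fit of ipatasertib and DMSO alone (28.3%). The B and C libraries alone also gave 3, where 3601 of 14613 tested genes were higher. With the B and C libraries alone, a setting chosen after seeing the data, 60 members were lower in the combination than with ipatasertib (26.7% of all tested genes were) and 1 was higher than with tazemetostat. In that setting 0 members were higher with tazemetostat than with DMSO, and 12 interaction terms were positive and 13 negative (14.6% and 15.9% of members, against 17.8% and 19.5% of all tested genes). Negative interaction terms numbered 4 on library totals, 4 in DESeq2 and 1 under the replicate block. These were 4.88%, 5.06% and 1.22% of members, against 9.40%, 9.16% and 3.29% of all tested genes. The stricter threshold left 0 positive and 0 negative ones. Apart from the stricter threshold, the cause was not tested.

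Leaving out each library in turn gave 0 members higher and 68 to 73 lower with the combination, 0 to 2 higher and 56 to 67 lower with ipatasertib, and 0 to 1 higher and 38 to 59 lower with tazemetostat. Without ipatasertib A, which gave 73 lower with the combination and 56 with ipatasertib, 32.0% and 20.5% of all tested genes fell. Without DMSO B, which gave 38 lower with tazemetostat, 17.7% did. Without tazemetostat A, which gave 67 lower with ipatasertib and 59 with tazemetostat, 26.1% and 24.0% did. Against ipatasertib, the combination had 2 to 3 members higher and 22 to 46 lower. The 46 came without ipatasertib A, where 20.6% of all tested genes were lower. Against tazemetostat the combination had 0 to 1 higher and 43 to 57 lower. The 22 and the 43 came without combination C, and the 57 without combination A. Positive interaction terms ranged from 1, without DMSO C, to 11, without tazemetostat A (13.4% of members, against 13.7% of all tested genes). Negative ones ranged from 0, without DMSO C, tazemetostat B, tazemetostat C or combination B, to 4, without combination A. Shares of all tested genes without combination A or C are not given here, so counts from those fits cannot be set against them. A group left with 2 libraries is assumed to vary like the others. Under the block by letter, 71 members were lower with the combination, 61 with ipatasertib and 45 with tazemetostat. In the same fit 28.7%, 21.3% and 19.0% of all tested genes were lower. Same-lettered libraries had deviations correlated over 0.1 in at most 1 of 3 pairs of any comparison, and in none did every library correlate best with its own letter, so the letters were not read as a pairing. Of the 81 gene changes tracked, 69 kept direction and side of the threshold throughout, 12 crossed it in at least 1 alternative and 0 changed direction. Depth limits NDUFA4L2, COX7B2, ATP5E and ATP5L2, which had 28 to 369 counts per group.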
